A study of Homo sapiens with 12 samples.

Results

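The genes described here are 57 genes that build the mitotic spindle, attach chromosomes to it, release the sister chromatids and divide the cell, read under hypoxia in the glioblastoma cell line U87 (U-87 MG). The rule that selects them is a list of symbols and uses no expression value, and all 57 are among the 20263 genes of the deposited table. Messenger RNA was sequenced in 4 groups of 3 libraries. The vector group carried an empty vector, HIF1α had been knocked out in HIF1α-ko and HIF2α in HIF2α-ko, and both in HIF1α/2α-ko, called the dual knockout below. All 12 libraries came from cells kept at 1% O2, for 72 h by the record of the experiment, so no library shows these genes at normal oxygen. The study's methods give a shorter hypoxia for mRNA detection in general, and which of these times the libraries had is not settled by the sources used here. The comparisons ask how loss of one or both HIFα subunits changed transcript levels under hypoxia. How the knockout lines were made and whether each is a single clone is not given in the sources used here, nor whether the 3 libraries of a group came from separate cultures, so each p measures the spread between these libraries, which may be technical.

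Before a cell divides, cyclins A and B activate CDK1, condensins compact the chromosomes, and kinetochores are assembled on the centromeres. Kinesin motors and microtubule-associated proteins then shape the spindle, the spindle checkpoint holds back the anaphase-promoting complex (APC/C) until every kinetochore is attached, and cytokinesis separates the daughter cells. Most of these genes are transcribed in G2 and M phase through B-MYB, FOXM1 and the MuvB complex, which bind an element named CHR, and in quiescent cells the same element carries the repressive DREAM complex. HIF1α and HIF2α are the oxygen-regulated subunits of the hypoxia-inducible factors. In bulk RNA, fewer cells in mitosis and less of each transcript per cell cannot be told apart.

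The targeted genes were read first. HIF1A stood at 124 ± 23.5 TPM (mean ± SD, n = 3) in vector and 48.5 ± 9.35 in HIF1α-ko, which is -1.34 ± 0.20 on the log2 scale (± SE, adjusted p = 0.000851). In the dual knockout it stood at 75.5 ± 11.9 (-0.71 ± 0.20, adjusted p = 0.0104). In HIF2α-ko, where it was not the target, HIF1A stood at 86.8 ± 18.1 with all 3 libraries below vector (-0.52 ± 0.20, adjusted p = 0.112), and the dual knockout overlapped with that group and was not called different from it (-0.19 ± 0.20, adjusted p = 0.453, 95% interval -0.62 to 0.23). EPAS1, which encodes HIF2α, stood at 322 ± 31.5 in vector, 107 ± 17.0 in HIF2α-ko (-1.59 ± 0.14, adjusted p = 0.000375) and 117 ± 14.4 in the dual knockout (-1.45 ± 0.14, adjusted p = 1.3e-05). Both transcripts were reduced and not absent, and HIF1A was higher in the dual knockout than in HIF1α-ko (log2 fold change 0.64 ± 0.20, adjusted p = 0.0287). The 6 markers of mesenchymal glioma lines were detected in every group, but their summed level was lower in each knockout group than in vector without overlap, 17107 to 22655 TPM in vector, 15471 to 16719 in HIF1α-ko, 11305 to 13172.5 in HIF2α-ko and 9454 to 12946 in the dual knockout. VIM, the most abundant, averaged 13003 ± 1567 TPM in vector and 6770 ± 1689 in the dual knockout (SD, n = 3). Of the 5 astrocytic and stem-like markers GFAP, SOX2 and S100B stayed below 1 TPM in every library. The sum of the list was 4.29 to 9.92 TPM in vector, 7.98 to 12.6 in HIF1α-ko, 7.67 to 10.04 in HIF2α-ko and 12.1 to 22.1 in the dual knockout. That higher sum was carried by OLIG2, which averaged 13.8 ± 5.84 TPM in the dual knockout against 1.91 ± 0.932 in vector. NES did not rise there, at 3.28 ± 0.707 TPM against 4.17 ± 1.64 in vector, with overlapping libraries. PTPRC, AIF1, RBFOX3, SYT1, EPCAM and CDH1 were below 1 TPM in every library. The neuronal marker SNAP25 was not, at 1.34 to 4.28 TPM over the 12 libraries. The endothelial markers were low but reached 1 TPM in some libraries, with VWF at 0.226 to 2.93 TPM, CDH5 at 0.226 to 3.63 and PECAM1 at 0.180 to 1.19. Of the 3 immune markers CD68 alone was abundant, and it carried the summed level of that list, 1284 to 1633 TPM in vector, 816 to 1061 in HIF1α-ko, 1009.9 to 1220.4 in HIF2α-ko and 587 to 818 in the dual knockout. The part of these marker lists in the results was not tested. Fits, adjusted p-values and the word "called" refer throughout to limma on log2(TPM + 1) over the 11731 genes with at least 1 TPM in at least 3 libraries, with Benjamini-Hochberg adjustment over all of them and a threshold of 0.05. TPM divides reads by gene length and scales each library to a common total, so it keeps no depth, and neither counting errors nor detection limits can be given.

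Levels of the 57 genes spanned from 0.0838 TPM for CENPE, a kinetochore motor, to 255 for CKS2, a small subunit bound to cyclin-dependent kinases (means of the 12 libraries). CKS2, UBE2C (218), PTTG1 (131) and CKS1B (128) led, and their longest coding transcripts in GENCODE 29 measured 613, 914, 1070 and 912 bases. The 6 members left untested were CENPE, CENPF (0.470), KNL1 (0.332), KIF14 (0.388), KIF20B (0.278) and SGO2 (0.349). Their longest coding transcripts ran from 4214 bases for SGO2 and 6419 for KIF20B to 10307 for CENPF. Over the 57 genes, the level per length, as log2(mean TPM + 1), fell with log2 transcript length at Pearson's r = -0.652 and Spearman's rho = -0.553, against -0.287 and -0.265 over 11643 tested genes with a length. These are descriptions across genes, which share the 12 libraries and are not independent. The log2 fold change in HIF1α-ko gave r = 0.00105 with log2 transcript length over the 51 tested members.

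Most of the mitotic genes were lower in HIF1α-ko and in the dual knockout than in vector, with a smaller count in HIF2α-ko that rested on single libraries. Of the 51 members tested, 44 were called lower in HIF1α-ko and 0 higher, where 8.77% of all tested genes were called lower and 17.3% higher. In the dual knockout 40 were called lower and 0 higher, against 14.8% and 31.8% of all genes, and in HIF2α-ko 17 were called lower and 0 higher, against 5.89% and 5.07%. The median log2 fold change of the members was -1.29, -0.98 and -0.68 in HIF1α-ko, the dual knockout and HIF2α-ko, while the median of all tested genes was 0.18, 0.21 and -0.04. All 3 libraries lay below all 3 vector libraries for 45 members in HIF1α-ko (12.3% of all genes), 41 in the dual knockout (17.4%) and 29 in HIF2α-ko (18.0%). The 3 comparisons share the vector libraries and are not independent of each other.

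The filter bears on these counts, because KIF18A, a kinesin that dampens chromosome movements, reached 1 TPM in the vector libraries alone. With no filter and all 57 members fitted, 41, 38 and 4 were called lower in HIF1α-ko, the dual knockout and HIF2α-ko and 0 higher. The count for HIF2α-ko depended on single libraries and on scaling. It was 1 without vector replicate 3, 1 without HIF2α-ko replicate 3, 2 without HIF2α-ko replicate 2, 5 without vector replicate 2, 11 without dual knockout replicate 3, 5 after median ratio scaling, 8 after quantile normalization and 38 lower with 1 higher when replicate 1 of every group was left out. The shares of all genes called without the filter and in these settings were not taken. RACGAP1 was the 1 named member called in HIF2α-ko under every setting tried, a limit on the size of the change aside.

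**Figure D1:**
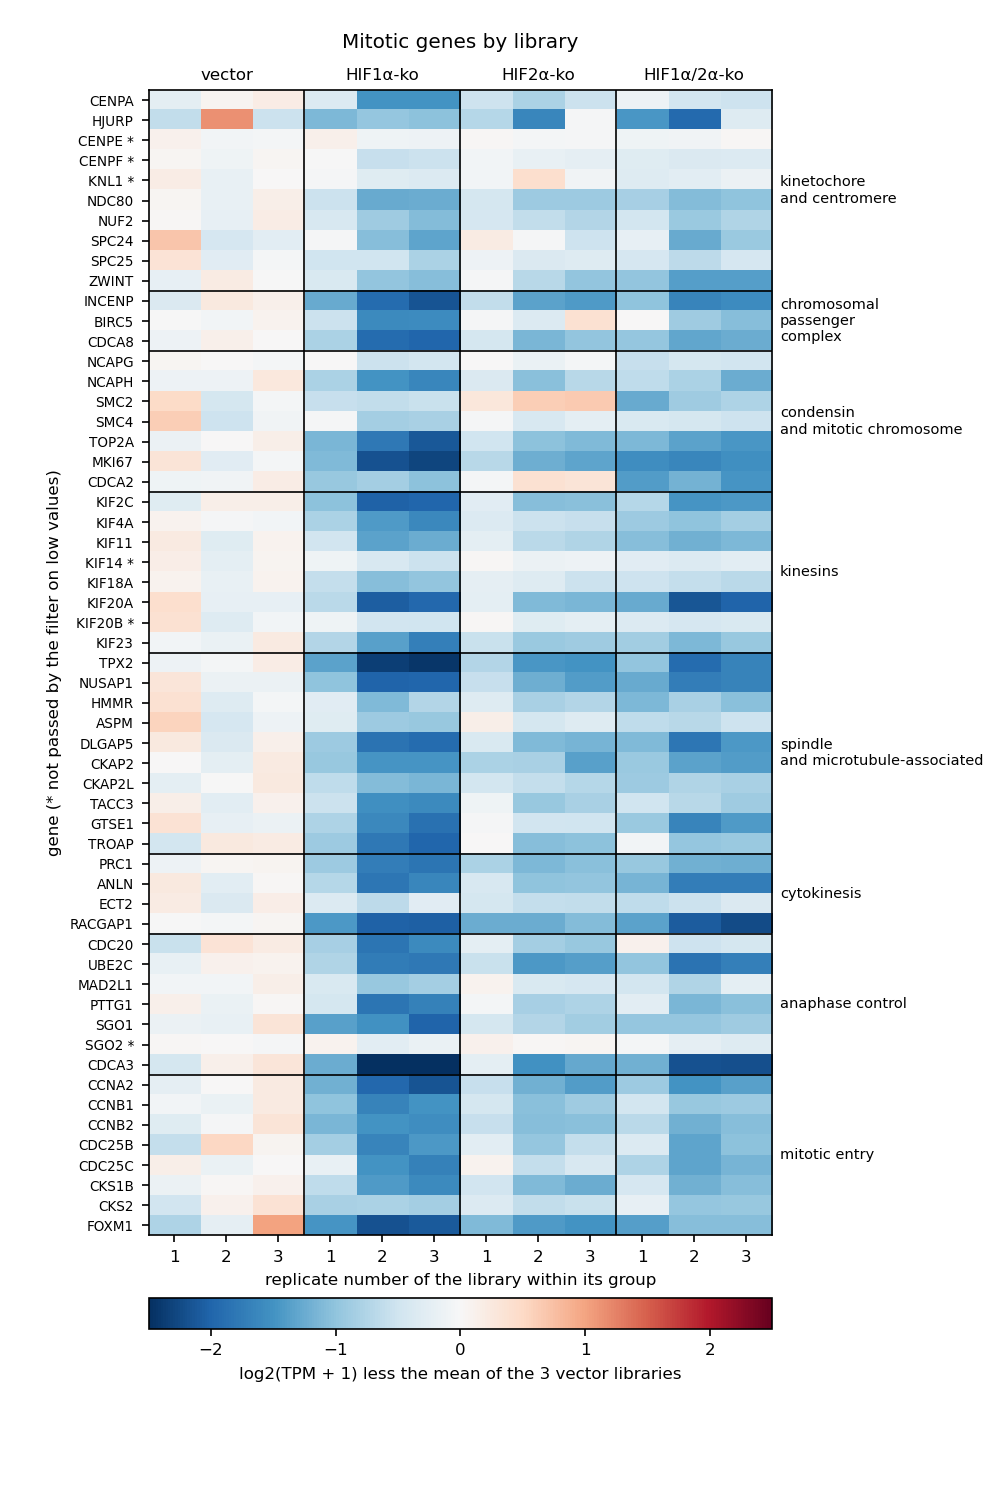
Each row is 1 of the 57 genes and each column 1 of the 12 libraries; colour gives log2(TPM + 1) less the mean of the 3 vector libraries, with values beyond 2.5 drawn in the end colour. The HIF1α-ko columns 2 and 3 are darkest (library medians over the tested members -1.5 and -1.59), CDCA2 and SMC2 stay pale or red in HIF2α-ko, and HJURP and FOXM1 each have 1 vector library far above the others.

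The promoters of these genes share sequence. The set of RefSeq promoters (GRCh38.p14) used here has an entry, 250 bases before to 50 bases after the start, for 49 of the 57 genes. A gene was counted where any of its entries held the letters. KNL1, BIRC5, CDCA2, TPX2, TROAP, RACGAP1, UBE2C and FOXM1 have none there. TTTGAA, the letters of the CHR element, was found on either strand in 36 of the 49 (73.5%), against 18.2% of the 27305 genes with an entry and 13.7% of the 9439 of these that were tested. CCAAT, the box bound by NF-Y, was found in 39 (79.6%, against 39.7% and 43.3%), and both in 30 (61.2%, against 7.26% and 5.59%). The core letters of the HIF site, ACGTG or GCGTG, were found in 35 (71.4%, against 52.4% and 70.4%). ACGTG alone was in 34.7% of the members, 24.9% of all genes and 33.1% of the tested ones, and GCGTG alone in 59.2%, 40.6% and 58.6%. By subgroup, TTTGAA was in 7 of 9 promoters of kinetochore genes, 6 of 8 of kinesins, 3 of 6 of anaphase genes and 4 of 7 of mitotic entry genes. A match is a description of these windows and not a bound site. The 250 bases before the RefSeq start are given for the 3 members with the smallest p in the dual knockout whose entry holds TTTGAA, MKI67 (chr10:128126424-128126673, minus strand), NUSAP1 (chr15:41332631-41332880, plus strand) and TOP2A (chr17:40417897-40418146, minus strand), read 5′ to 3′ on the gene's strand with TTTGAA and CCAAT in capitals on either strand (TTCAAA and ATTGG are their reverse complements).
MKI67: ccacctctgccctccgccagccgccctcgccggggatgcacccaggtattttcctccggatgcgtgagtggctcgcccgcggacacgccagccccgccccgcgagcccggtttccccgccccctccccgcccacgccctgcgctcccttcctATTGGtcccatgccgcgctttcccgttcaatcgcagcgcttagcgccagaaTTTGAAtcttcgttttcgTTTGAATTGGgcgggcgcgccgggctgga
NUSAP1: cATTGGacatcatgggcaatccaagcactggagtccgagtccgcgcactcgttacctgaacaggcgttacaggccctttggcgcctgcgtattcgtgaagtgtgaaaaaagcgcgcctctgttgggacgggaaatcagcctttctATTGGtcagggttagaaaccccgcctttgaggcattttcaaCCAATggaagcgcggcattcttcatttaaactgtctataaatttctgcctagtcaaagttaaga
TOP2A: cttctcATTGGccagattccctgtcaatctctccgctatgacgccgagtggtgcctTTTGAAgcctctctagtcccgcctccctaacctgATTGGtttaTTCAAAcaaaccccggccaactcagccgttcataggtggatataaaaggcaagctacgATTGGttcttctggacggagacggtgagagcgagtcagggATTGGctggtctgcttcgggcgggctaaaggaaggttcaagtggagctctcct
In MKI67 the 2 TTTGAA copies begin 47 and 29 bases before the start, and the copy nearer the start overlaps an ATTGG. In NUSAP1 the TTTGAA begins at base 14 after the start, past the stretch shown, with 3 CCAAT letters before it. TOP2A holds 2 copies, beginning 194 and 151 bases before the start, among 4 CCAAT letters.

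Of the 8 genes of mitotic entry, 8 were called lower in HIF1α-ko, 8 in the dual knockout and 5 in HIF2α-ko, where each of the 5 calls was lost in some setting. CCNB1 (ENSG00000134057), cyclin B1, on chromosome 5 (69167010 to 69178245 of GRCh38, plus strand), read 49.3, 45.9 and 60.0 TPM in vector and 25.0, 15.5 and 17.6 in HIF1α-ko. In HIF2α-ko the 3 values were 37.8, 24.4 and 27.3, and in the dual knockout 37.2, 26.1 and 27.0. No knockout library reached the lowest vector library, and HIF1α-ko lay below the dual knockout without overlap. The log2 fold changes against vector were -1.39 ± 0.22 (adjusted p = 0.00123), -0.79 ± 0.22 (adjusted p = 0.0356) and -0.77 ± 0.22 (adjusted p = 0.0113) (± SE) for HIF1α-ko, HIF2α-ko and the dual knockout, the order kept below. CCNA2, cyclin A2, fell by more in HIF1α-ko (log2 fold change -1.77 ± 0.28, adjusted p = 0.00130), from 23.2 ± 3.69 TPM (mean ± SD, n = 3) to 6.34 ± 2.74, and CCNB2, cyclin B2, from 80.0 ± 17.9 to 29.5 ± 5.08 (-1.40 ± 0.21, adjusted p = 0.000917). Both were also called lower in HIF2α-ko (-1.06 and -0.89) and the dual knockout (-1.25 and -0.98).

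FOXM1 (ENSG00000111206), the transcription factor that drives many of the other genes in G2, on chromosome 12 (2857681 to 2877155, minus strand), read 56.8, 83.8 and 198 TPM in vector, 34.7, 21.0 and 22.2 in the HIF1α-ko libraries, 45.0, 35.9 and 34.2 in those of HIF2α-ko and 37.1, 46.3 and 46.4 in those of the dual knockout. Every knockout library was below every vector library, but vector replicate 3 stood far above the others. Its change was -1.91 ± 0.35 (adjusted p = 0.00287), -1.34 ± 0.35 (adjusted p = 0.0299) and -1.17 ± 0.35 (adjusted p = 0.0159) respectively. In HIF2α-ko it was -0.84 without vector replicate 3 (adjusted p = 0.0790). The call in HIF2α-ko was also lost without vector replicate 2 and without each HIF2α-ko library in turn, with adjusted p up to 0.0992. CKS2, the most abundant member, read 251, 377 and 445 TPM in vector and 197, 200.4 and 192 in HIF1α-ko, whose libraries lay close together and below all of vector (-0.82 ± 0.22, adjusted p = 0.0186). In the dual knockout its replicate 1 reached into the vector range (302, 178 and 179 TPM, -0.71 ± 0.22, adjusted p = 0.0200), and in HIF2α-ko the change was -0.51 ± 0.22, adjusted p = 0.168. Without any 1 of vector replicate 2, vector replicate 3, or replicate 2 or 3 of the knockout, the calls of CKS2 were lost, with adjusted p between 0.0526 and 0.0878. CKS1B, its paralog, was called lower in all 3 groups (-1.21, -0.94 and -0.90). How reads that 2 similar copies share were counted, as for CKS1B and CKS2 or for PTTG1 and its near copies, is not given in the sources used here. The phosphatases CDC25B and CDC25C, which activate CDK1, were called lower in HIF1α-ko (-1.31 and -1.12) and the dual knockout (-0.89 and -1.08).

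Among the genes that shape the mitotic chromosome, HIF1α-ko had 4 of 7 called lower, the dual knockout 6 and HIF2α-ko 2. MKI67 (ENSG00000148773), which coats chromosomes and gives the Ki-67 proliferation antigen, on chromosome 10 (128096659 to 128126385, minus strand), read 15.8, 10.1 and 12 TPM in vector and 5.28, 1.97 and 1.76 in HIF1α-ko. Its HIF2α-ko libraries read 7.33, 4.73 and 4.41 and those of the dual knockout 3.56, 3.34 and 3.64. No knockout library reached the vector range, and the 3 libraries of the dual knockout were nearly equal. The log2 fold changes were -1.85 ± 0.29 (adjusted p = 0.00129), -1.08 ± 0.29 (adjusted p = 0.0339) and -1.57 ± 0.29 (adjusted p = 0.000874) respectively. TOP2A (ENSG00000131747), the topoisomerase that untangles sister chromatids (chromosome 17, 40388516 to 40417950, minus strand), read 9.69, 10.9 and 12.2 TPM in vector and 4.37, 2.46 and 1.75 in HIF1α-ko (-1.68 ± 0.24, adjusted p = 0.000819), and was called lower in HIF2α-ko (-0.88) and the dual knockout (-1.31) as well. NCAPH, a condensin I subunit, was called lower in HIF1α-ko (-1.30) and the dual knockout (-0.89). The ATPase SMC4, common to both condensins, passed the test in none of the comparisons against vector (-0.56, -0.23 and -0.44).

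CDCA2 (ENSG00000184661), which brings protein phosphatase 1 to chromatin at anaphase (chromosome 8, 25458997 to 25507920, plus strand), read 15.9, 16.1 and 19.5 TPM in vector and 16.4, 22.4 and 21.6 in HIF2α-ko, against 8.39, 9.0 and 7.83 in HIF1α-ko and 5.88, 6.95 and 5.52 in the dual knockout. The HIF2α-ko libraries overlapped with vector (0.21 ± 0.16, adjusted p = 0.431, 95% interval -0.14 to 0.57), and both groups with HIF1α knocked out lay below every library of the other groups (HIF1α-ko -0.94 ± 0.16, adjusted p = 0.00205, the dual knockout -1.35 ± 0.16, adjusted p = 4.34e-05). SMC2, the partner of SMC4, read 4.68, 2.01 and 2.89 TPM in vector, 1.70, 1.65 and 1.75 in the HIF1α-ko libraries, 3.91, 5.20 and 5.36 in those of HIF2α-ko and 0.699, 1.18 and 1.38 in those of the dual knockout. It was chosen here after its values were seen. The 4 groups overlapped only between vector and HIF2α-ko. SMC2 fell in the dual knockout (-0.97 ± 0.22, adjusted p = 0.00362), while HIF1α-ko gave -0.58 ± 0.22 (adjusted p = 0.0710) and HIF2α-ko 0.51 ± 0.22 (adjusted p = 0.163).

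Of the 7 kinetochore and centromere genes tested, 5 were called lower in HIF1α-ko, 4 in the dual knockout and 1 in HIF2α-ko. NDC80 (ENSG00000080986), the outer-kinetochore protein that grips microtubules, read 4.32, 3.55 and 4.71 TPM in vector and 2.56, 1.15 and 1.20 in HIF1α-ko. In HIF2α-ko the 3 values were 2.79, 1.74 and 1.76, and in the dual knockout 1.92, 1.45 and 1.57. All 9 knockout libraries were below all vector libraries, and the log2 fold changes were -1.01 ± 0.21 (adjusted p = 0.00590), -0.76 ± 0.21 (adjusted p = 0.0419) and -0.97 ± 0.21 (adjusted p = 0.00282) respectively. Its complex partners NUF2 and SPC25 were called lower in HIF1α-ko (-0.79 and -0.60) and the dual knockout (-0.71 and -0.50), while SPC24, another subunit of the same complex, was not (-0.81 and -0.80, with vector libraries at 12.2, 5.05 and 5.77 TPM). ZWINT, a kinetochore scaffold that joins the checkpoint to the outer plate, was called lower in the dual knockout (-1.25 ± 0.26, adjusted p = 0.00179) and HIF1α-ko (-0.81 ± 0.26, adjusted p = 0.0373), where the call was lost without HIF1α-ko replicate 2 or 3, vector replicate 2 or 3, or HIF2α-ko replicate 2 (adjusted p 0.0508 to 0.138).

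CENPA, the histone H3 variant that marks centromeres, read 9.66, 12.3 and 13.4 TPM in vector, 8.99, 3.52 and 3.51 in the HIF1α-ko libraries, 7.88, 6.36 and 7.72 in those of HIF2α-ko and 10.6, 8.22 and 7.88 in those of the dual knockout. It was called lower in HIF1α-ko (-1.11 ± 0.27, adjusted p = 0.0122), where replicates 2 and 3 were low and replicate 1 was close to the lowest vector library, and not in the dual knockout (-0.37 ± 0.27, adjusted p = 0.289, 95% interval -0.96 to 0.23). Without HIF1α-ko replicate 2 or 3 or vector replicate 3 the call was lost (adjusted p 0.0519 to 0.0614). HJURP, the chaperone that loads CENPA, read 13.2, 46.7 and 14.0 TPM in vector, with replicate 2 far above every other library, and passed in none of the comparisons against vector (-1.04, -0.79 and -1.24). CENPE, CENPF and KNL1, a kinetochore motor, a coat protein and the checkpoint platform, were too low to be tested. CENPF read 0.752, 0.572 and 0.755 TPM in vector and 0.686, 0.131 and 0.172 in HIF1α-ko. Its HIF2α-ko libraries read 0.622, 0.478 and 0.450 and those of the dual knockout 0.371, 0.314 and 0.34. KNL1 lay between 0.113 and 0.887 TPM in the 12 libraries and CENPE between 0.0101 and 0.201.

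The chromosomal passenger complex corrects wrong attachments with Aurora B, and its 3 members here were all called lower in HIF1α-ko. INCENP (ENSG00000149503), its scaffold, on chromosome 11 (62123973 to 62153163, plus strand), read 23.6, 36.3 and 33.9 TPM in vector, 12.3, 7.32 and 6.07 in the HIF1α-ko libraries, 19.8, 11.5 and 10.9 in those of HIF2α-ko and 14.8, 9.14 and 9.72 in those of the dual knockout. The knockout libraries were all below vector, with changes of -1.78 ± 0.29 (adjusted p = 0.00154), -1.12 ± 0.29 (adjusted p = 0.0282) and -1.41 ± 0.29 (adjusted p = 0.00179) respectively. CDCA8 (borealin) went from 20.3 ± 1.78 TPM to 6.78 ± 3.96 in HIF1α-ko (-1.56 ± 0.29, adjusted p = 0.00293) and 8.51 ± 1.22 in the dual knockout (-1.17 ± 0.29, adjusted p = 0.00551). BIRC5 (survivin) was lower in HIF1α-ko (12.7, 5.58 and 5.70 TPM, against 18.7, 18.0 and 20.1 in vector, -1.23 ± 0.32, adjusted p = 0.0158) and read 18.6, 14.8 and 24.8 in HIF2α-ko, where the libraries spanned the vector range (0.01 ± 0.32, adjusted p = 0.994).

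The 6 kinesins tested were called lower in HIF1α-ko and in the dual knockout and 1 of them in HIF2α-ko, the 6 counting KIF18A, which passed the filter through its vector libraries alone. KIF2C (ENSG00000142945), which removes tubulin from microtubule ends at kinetochores (chromosome 1, 44739818 to 44767767, plus strand), read 35.0, 47.9 and 48.1 TPM in vector and 20.8, 9.91 and 10.2 in HIF1α-ko. In HIF2α-ko the 3 values were 35.1, 20.1 and 20.4, and in the dual knockout 25.9, 14.9 and 15.4. HIF2α-ko replicate 1 stood at the level of the lowest vector library, and the other knockout libraries were below. The log2 fold changes were -1.67 ± 0.31 (adjusted p = 0.00280), -0.80 ± 0.31 (adjusted p = 0.114) and -1.21 ± 0.31 (adjusted p = 0.00638) respectively. KIF4A, a chromosome-bound motor of the midzone, fell in HIF1α-ko (-1.27 ± 0.20, adjusted p = 0.00127) and KIF11, the motor that pushes the spindle poles apart, in the dual knockout (-1.13 ± 0.23, adjusted p = 0.00185). KIF23, the centralspindlin motor, was the kinesin called lower in HIF2α-ko (-0.79 ± 0.23, adjusted p = 0.0451), with HIF1α-ko at -1.27 and the dual knockout at -0.98. KIF20A, a motor of the midzone, had its lowest values in the dual knockout (15.7, 8.09 and 8.96 TPM, against 52.2, 33.8 and 33.4 in vector, -1.80 ± 0.38, adjusted p = 0.00209). KIF14 and KIF20B, untested, averaged 0.568 ± 0.221 and 0.504 ± 0.382 TPM in vector (± SD, n = 3) and 0.235 ± 0.196 and 0.158 ± 0.178 in HIF1α-ko.

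Of 10 spindle and microtubule-associated genes, 9 were called lower in HIF1α-ko, 7 in the dual knockout and 4 in HIF2α-ko. TPX2 (ENSG00000088325), which activates Aurora A and nucleates microtubules around chromosomes (chromosome 20, 31739271 to 31801805, plus strand), read 69.0, 72.9 and 85.6 TPM in vector, 29.2, 14.0 and 13.2 in the HIF1α-ko libraries, 44.8, 27.0 and 26.3 in those of HIF2α-ko and 37.8, 19.3 and 23.0 in those of the dual knockout. Its knockout libraries were far below vector, with replicate 1 the highest of each knockout group. The changes were -2.04 ± 0.31 (adjusted p = 0.00115), -1.23 ± 0.31 (adjusted p = 0.0270) and -1.52 ± 0.31 (adjusted p = 0.00174) respectively. NUSAP1, which bundles spindle microtubules and whose promoter is given above, went from 27.5 ± 5.42 TPM to 8.37 ± 4.0 in HIF1α-ko and 8.65 ± 1.77 in the dual knockout (-1.56 ± 0.29, adjusted p = 0.000905). CKAP2, a microtubule stabilizer, was called lower in all 3 groups (-1.29, -0.99 and -1.22). TROAP, a cytoskeletal protein of the spindle, read 40.2, 66.1 and 64.7 TPM in vector and 29, 15.5 and 13.3 in HIF1α-ko (-1.56 ± 0.36, adjusted p = 0.00913), while in the dual knockout (53.3, 28.0 and 28.7) it overlapped with vector (-0.65 ± 0.36, adjusted p = 0.159). ASPM, a protein of the spindle poles, passed in none of the comparisons against vector (-0.72, -0.21 and -0.62), and vector replicate 1 (2.52, 0.803 and 1.19 TPM in the vector libraries) stood above the rest.

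Of the 6 tested genes of anaphase control, 6 were called lower in HIF1α-ko, 3 in the dual knockout and 1 in HIF2α-ko. CDC20 (ENSG00000117399), the APC/C activator that the checkpoint restrains (chromosome 1, 43358955 to 43363203, plus strand), read 29.8, 57.1 and 51.8 TPM in vector and 24.8, 11.9 and 14.1 in HIF1α-ko. Its HIF2α-ko libraries read 37.2, 24.3 and 22.7 and those of the dual knockout 48.0, 30.8 and 32.6. HIF1α-ko lay below all vector and all dual knockout libraries, and the dual knockout overlapped with vector. The changes against vector were -1.41 ± 0.31 (adjusted p = 0.00657), -0.68 ± 0.31 (adjusted p = 0.178) and -0.28 ± 0.31 (adjusted p = 0.469) respectively. UBE2C (ENSG00000175063), the ubiquitin-conjugating enzyme of the APC/C (chromosome 20, 45812576 to 45816957, plus strand), read 342, 420.2 and 412 TPM in vector, 232, 116 and 112 in the HIF1α-ko libraries, 266, 143 and 149 in those of HIF2α-ko and 197, 108 and 119 in those of the dual knockout. No knockout library reached vector. It was called lower in all 3 (-1.43, -1.12 and -1.51).

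SGO1, shugoshin, which protects centromeric cohesion, read 3.96, 3.83 and 5.83 TPM in vector and 1.13, 0.912 and 0.359 in HIF1α-ko. In HIF2α-ko the 3 values were 3.04, 2.31 and 1.99, and in the dual knockout 1.80, 1.79 and 1.97. The 4 groups of libraries did not overlap, in the order vector, HIF2α-ko, the dual knockout and HIF1α-ko. SGO1 was called lower in HIF1α-ko (-1.63 ± 0.20, adjusted p = 0.000373) and the dual knockout (-0.94 ± 0.20, adjusted p = 0.00245) but not in HIF2α-ko (-0.68 ± 0.20, adjusted p = 0.0513). Its relative SGO2 stayed untested at 0.400 ± 0.0308 TPM in vector and 0.463 ± 0.0450 in HIF2α-ko. PTTG1 (securin), the inhibitor of separase, was called lower in HIF1α-ko (-1.32 ± 0.34, adjusted p = 0.0158) with -0.82 in the dual knockout, MAD2L1, the checkpoint protein, likewise (-0.72 ± 0.21, adjusted p = 0.0241 and -0.48), and CDCA3, a substrate of the APC/C, had the largest change of the 51 tested members in HIF1α-ko (-2.09 ± 0.41, adjusted p = 0.00407).

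All 4 cytokinesis genes were called lower in the dual knockout, 3 in HIF1α-ko and 2 in HIF2α-ko. RACGAP1 (ENSG00000161800), the GTPase-activating partner of KIF23 in centralspindlin (chromosome 12, 49976923 to 50033136, minus strand), read 66.4, 65.3 and 69.9 TPM in vector, 24.2, 15.7 and 15.5 in the HIF1α-ko libraries, 28.0, 27.7 and 31.3 in those of HIF2α-ko and 25.8, 15.2 and 13.4 in those of the dual knockout. The vector libraries were tight and all 9 knockout libraries lay far below them. The changes were -1.84 ± 0.22 (adjusted p = 0.000334), -1.19 ± 0.22 (adjusted p = 0.00732) and -1.89 ± 0.22 (adjusted p = 4.04e-05) respectively. PRC1, the bundler of midzone microtubules, went from 48.8 ± 3.69 TPM to 17.6 ± 6.92, 24.2 ± 3.06 and 21.9 ± 2.58 in HIF1α-ko, HIF2α-ko and the dual knockout (-1.48, -0.99 and -1.12, all called). ANLN, the scaffold of the contractile ring, was called lower in HIF1α-ko (-1.39) and the dual knockout (-1.54). ECT2, the RhoA exchange factor that RACGAP1 recruits, changed least of the 4 (-0.43, -0.55 and -0.50, called in the dual knockout).

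**Figure D2:**
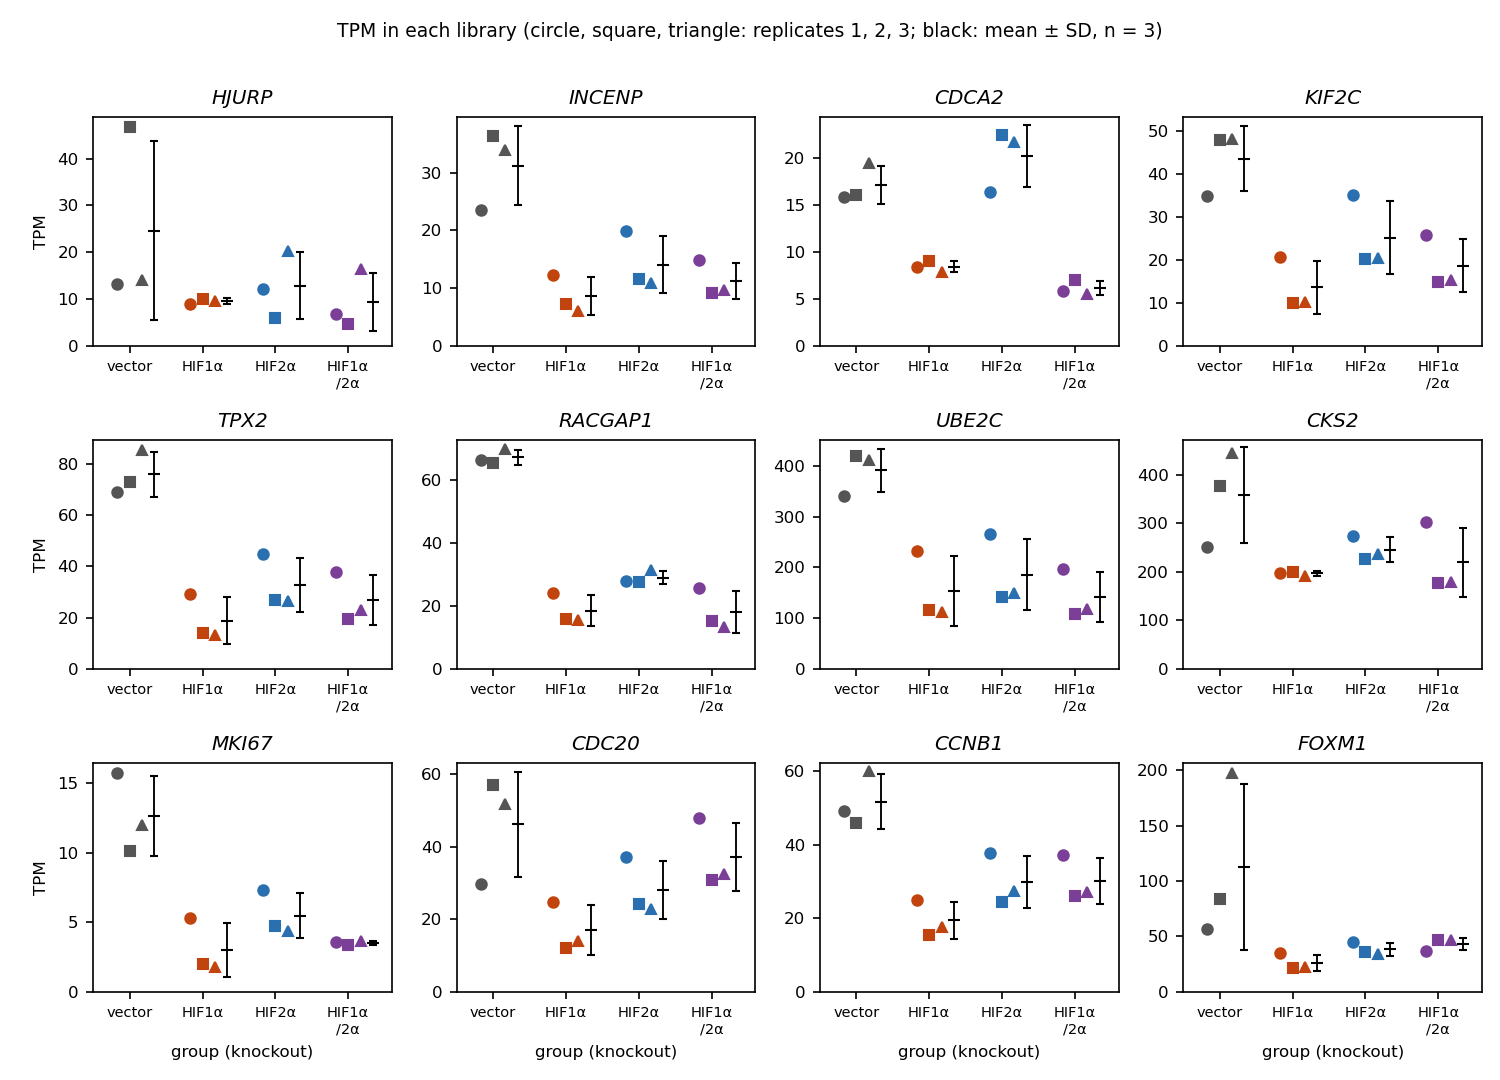
TPM in each library for 12 genes, with the mean and SD (n = 3) in black; circles, squares and triangles are replicates 1, 2 and 3, and each panel has its own axis. For CDCA2 the HIF2α-ko libraries stand with vector or above it, for CDC20 the dual knockout libraries overlap with vector, and for RACGAP1 every knockout library is below 32 TPM against 65 TPM or more in vector.

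Set side by side, the subgroups kept different distances to the median of all tested genes. In HIF1α-ko the subgroup median less that of all genes was -0.99 for kinetochore, -1.12 for condensin and mitotic chromosome, -1.45 for kinesins, -1.53 for mitotic entry, -1.54 for spindle, -1.60 for anaphase control, -1.61 for cytokinesis and -1.74 for the passenger complex. In the dual knockout the same values ran from -1.01 (kinetochore) to -1.54 (cytokinesis), with anaphase control at -1.08 and mitotic entry at -1.14. In HIF2α-ko condensin and mitotic chromosome stood nearest to all genes at -0.18 and cytokinesis farthest at -0.85. The value of -0.18 depended on the vector libraries, at -0.41 without replicate 2 of vector and -0.033 without replicate 1. The SD of a subgroup's median over the 3 libraries of a group was 0.128 (condensin) to 0.676 (passenger complex) in HIF1α-ko, 0.141 to 0.371 in HIF2α-ko, 0.133 to 0.333 in the dual knockout and 0.0900 to 0.241 in vector, and the steps between neighbours in this order were smaller than the larger SD of each pair in HIF1α-ko. The order was taken on log2(TPM + 1), which understates changes of low genes. With a pseudocount of 0.1 kinetochore stood at -1.39 in HIF1α-ko and -1.41 in the dual knockout. Kinesins then stood at -1.82 in HIF1α-ko. In the dual knockout condensin and mitotic chromosome stood at -1.67 and spindle at -1.72. The part of this scale in the order was not tested. No test compared the subgroups with each other.

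The 14 mitotic kinases, counted apart from these members, had 13, 7 and 10 called lower in HIF1α-ko, HIF2α-ko and the dual knockout, with a median of -1.18, -0.68 and -1.03. The 14 include TTK, which passed the filter through its vector libraries alone. It read 1.14, 1.03 and 1.88 TPM there and 0.175 to 0.883 TPM in the knockout libraries. Of 31 tested DNA replication factors 6, 2 and 10 were called lower and 1 (MCM6), 0 and 3 (MCM6, MCM7 and RFC4) higher, with medians of -0.20, -0.24 and -0.15. These counts are descriptions beside the shares of all genes given above.

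Other genes of the same machinery were counted by complex, beside the same shares of all genes (8.77%, 5.89% and 14.8% called lower and 17.3%, 5.07% and 31.8% higher in HIF1α-ko, HIF2α-ko and the dual knockout). Of 16 APC/C subunits and cofactors, UBE2S was called lower in HIF1α-ko (-0.90) and CDC26 in HIF2α-ko (-0.45), while ANAPC2, ANAPC5, ANAPC11 and ANAPC13 were called higher in HIF1α-ko, ANAPC11 in HIF2α-ko, and ANAPC5, ANAPC7, ANAPC11 and ANAPC16 in the dual knockout. The 4 of 16 called higher (25.0%) in HIF1α-ko and in the dual knockout lie near and below those shares. ANAPC7, a scaffold subunit, read 7.69, 6.82 and 6.93 TPM in vector and 14.7, 19.9 and 20.8 in the dual knockout, where it rose without overlap (1.24 ± 0.17, adjusted p = 0.000130). ANAPC11, the catalytic RING subunit, rose in all 3 groups (0.77, 0.79 and 0.69). Cohesin and separase (11 tested) had 3 called lower in the dual knockout, CDCA5, the cohesin stabilizer sororin (-1.04 ± 0.30, adjusted p = 0.0129), ESPL1, separase (-0.55 ± 0.18, adjusted p = 0.0236), and STAG2 (-0.48). CDCA5 was also the 1 called lower in HIF1α-ko (-1.12), and in HIF2α-ko it was RAD21 (-0.49). The inner kinetochore and Mis12 complex (16 tested) had 6 called lower in the dual knockout, with CENPT at -0.72 ± 0.14 (adjusted p = 0.00133) and DSN1 at -0.60 ± 0.16 (adjusted p = 0.00881), and 1 in each single knockout, CENPN (-0.61) in HIF1α-ko and NSL1 (-0.89) in HIF2α-ko. Of the 4 other condensin subunits, 2, 0 and 2 were called lower, NCAPG2 (-0.60 and -0.69) and NCAPD2 (-0.97 and -0.65) in both cases. Of 11 tested genes of the DREAM and MuvB complexes, MYBL2, which encodes B-MYB, was called lower in HIF1α-ko (-1.19) and E2F4 higher (0.66). In HIF2α-ko 0 were called, and in the dual knockout 2 were called lower, LIN37 (-0.38) and RBL1 (-0.61), and 5 higher, LIN52, RBBP4, TFDP1, E2F4 and E2F5. E2F4, the E2F of the DREAM complex, read 36.3, 23.4 and 19.5 TPM in vector and 83.6, 105 and 106 in the dual knockout (1.90 ± 0.20, adjusted p = 1.93e-05), with no overlap, and E2F5, its relative, rose there too (0.94 ± 0.19, adjusted p = 0.00162).

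Between the knockout groups the same genes were compared with each other. HIF1α-ko was lower than HIF2α-ko for 9 of the 51 members and higher for 0 (7.37% and 17.8% of all genes). With the replicate number as a block in the 3 knockout groups, where number 1 stood apart but numbers 2 and 3 did not separate from each other, 38 were called lower and 0 higher, against 12.7% of all genes called lower. The share of all genes called higher with this block was not taken, so the 0 has no share beside it. SGO1 was called in both fits (-0.95 ± 0.20, adjusted p = 0.00609, with the block 0.00229), as were CDCA2 (-1.16 ± 0.16, adjusted p = 0.000457, with the block 0.000342) and RACGAP1 (-0.65 ± 0.22, adjusted p = 0.0492, with the block 0.0198). CCNB1 (-0.60 ± 0.22) was called with the block alone (adjusted p = 0.0595 without and 0.000978 with it), and so was TPX2 (-0.82 ± 0.31, 0.0726 and 0.000938). The count of 9 rose to 34 without HIF1α-ko replicate 1 and was 3 without either replicate 2 or replicate 3 of HIF1α-ko and 4 without HIF2α-ko replicate 1.

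The dual knockout was higher than HIF1α-ko for 3 members (5.88%), CDC20 (1.13 ± 0.31, adjusted p = 0.0162), SGO1 (0.69 ± 0.20, adjusted p = 0.0241) and CCNB1 (0.62 ± 0.22, adjusted p = 0.0485), and lower for 0. Of all genes 17.7% were called higher and 10.6% lower, so both counts lie below these shares. With the block 15 members (29.4%) were called higher and 3 (5.88%) lower, against 29% and 19.5% of all genes. The higher count then equals about the share of all genes and the lower one lies below it. The 3 lower ones were SMC2 (-0.39, 0.0374), CDCA2 (-0.41, 0.0250) and ZWINT (-0.44, 0.0204), given with the adjusted p of the blocked fit. The count of 3 rose to 13 when HIF1α-ko replicate 1 was left out. It was 1 without HIF1α-ko replicate 2, 0 without replicate 3 of that group, and 1 without any library of the dual knockout. Against HIF2α-ko, the dual knockout was lower for 6 members (11.8%), SMC2, CDCA2, GTSE1, RACGAP1, ZWINT and NCAPG, and higher for 0. Of all genes 12.9% were called lower and 33.5% higher, so the 6 lie near the share of all genes. SMC2 (-1.48 ± 0.22, adjusted p = 0.000215) and CDCA2 (-1.56 ± 0.16, adjusted p = 1.63e-05) differed most. With the block 21 members (41.2%) were called lower and 1 (1.96%) higher, against 19.0% and 43.6% of all genes. The lower share then lies above that of all genes and the higher one below it. The member called higher was CDC20 (0.40, adjusted p = 0.0116). The count of 6 was 2 without dual knockout replicate 2, 3 without dual knockout replicate 3 or HIF2α-ko replicate 1, and 11 without HIF1α-ko replicate 1.

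The interaction term asked whether the change in the dual knockout differed on the log2 scale from both single-knockout changes added together. It was positive and called for 18 of the 51 members, and negative and called for 0, where 13.2% of all genes were called positive and 7.35% negative. FOXM1 had the largest term, 2.09 ± 0.50, adjusted p = 0.0126, followed by CDC20 (1.81 ± 0.43, adjusted p = 0.0130) and TPX2 (1.74 ± 0.44, adjusted p = 0.0169). The first rank of FOXM1 rests on vector replicate 3, at 198 TPM against 56.8 and 83.8 in vector replicates 1 and 2. By subgroup 5 of 8 mitotic entry genes, 2 of 3 passenger genes, 2 of 4 cytokinesis genes, 2 of 6 anaphase genes, 3 of 10 spindle genes, 2 of 7 chromosome genes, 1 of 7 kinetochore genes and 1 of 6 kinesins were called. TPX2, PRC1, CDC20, SGO1, CCNB1, CCNB2 and FOXM1 kept the call in every setting tried, a limit on size aside. CDCA2 (-0.62 ± 0.23, adjusted p = 0.0730) and SMC2 (-0.90 ± 0.32, adjusted p = 0.0616) had negative terms that did not pass. HIF1A itself had a positive term of 1.15 ± 0.28, adjusted p = 0.0131, and the part of this in the members' terms was not tested. The count was 8 without HIF1α-ko replicate 2 or 3 or vector replicate 3, 9 without HIF2α-ko replicate 2 or 3, 30 without HIF1α-ko replicate 1, and 9 positive with 2 negative after median ratio scaling.

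Replicate 1 stood apart within the knockout groups. Its value was the highest of the 3 for 45 of 51 members in HIF1α-ko (88.2%), 38 in the dual knockout (74.5%) and 46 in HIF2α-ko (90.2%), while over all tested genes it was highest for 27.6%, 25.4% and 27.2%. In vector it was highest for 19 members (37.3%, against 45.7% of all genes) and lowest for 23. Over all tested genes vector replicate 1 stood apart too. It correlated with vector replicates 2 and 3 at r = 0.968 and 0.966, against 0.989 between replicates 2 and 3. The median of the members relative to the vector mean was -0.78 in HIF1α-ko replicate 1 against -1.5 and -1.59 in replicates 2 and 3, -0.35 against -0.91 and -0.87 in HIF2α-ko, and -0.90 against -1.18 and -1.06 in the dual knockout. No source used here says what a replicate number marks. With replicate 1 of every group left out, 48 members were called lower in HIF1α-ko and 46 in the dual knockout, and the medians of every subgroup stayed below that of all genes. The share of all genes called in this setting was not taken. Summed over the 57 genes, the libraries held 1909 to 2494 TPM in vector, 704 to 1210 in HIF1α-ko, 1063 to 1614 in HIF2α-ko and 860 to 1399 in the dual knockout. No knockout library reached the lowest vector library.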

How the data were processed

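Messenger RNA libraries of 12 U87 samples were read from 1 table of TPM values per gene, which the authors deposited with no counts, so depth and counting error are unknown. The submitters' processing notes list FastQC 0.11.2, Trimmomatic 0.36, HISAT2 2.0, bedtools 2.26.0 and GRCh38, while their roles, the counting tool, the annotation and the treatment of strand and of reads shared by similar genes are not given in the sources used here. The vector columns were recognised by carrying no knockout code. Symbols came from a gene table for 20148 identifiers and from GENCODE 29 for 76, and 39 had none. The members, their 8 subgroups and the other lists were chosen with earlier results of these data known.

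Values were analysed as log2(TPM + 1), a scale on which fold changes of low genes are understated, for the 11731 genes with at least 1 TPM in at least 3 libraries. All 4 groups entered 1 limma model (limma 3.58.1 in R 4.3.3, empirical Bayes with a mean-variance trend), tests were two-sided, and Benjamini-Hochberg adjustment ran over all tested genes within a comparison. The interaction was the change in HIF1α/2α-ko less both single-knockout changes. Intervals are 95% intervals of the fit. In data simulated for HIF1α-ko against vector with 200 of 11731 genes changed by 2 on the log2 scale, 193 were recovered and 10 unchanged genes were called. The simulated libraries were independent and lacked the deviation that knockout libraries numbered 1 share. The change of 2 was also larger than the median change of the members in HIF1α-ko (-1.29). The simulation therefore gives neither the recovery nor the false calls at the sizes and spread reported here. Tables and plots used Python 3.11.15 with pandas 2.3.3, numpy 2.4.6, scipy 1.17.1 and matplotlib 3.10.9.

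Genes were named by rule: in each subgroup the most abundant member and the smallest p in each comparison against vector, every member called in the interaction, every untested member, and in each of 5 pathway lists the 2 smallest p in HIF1α/2α-ko. Other genes named in the text, such as SMC2, SPC24, ASPM and CDCA3, were chosen after their values were seen. The alternatives were a pseudocount of 0.1, no filter, a mean TPM of at least 5, median ratio scaling, quantile normalization, only the groups compared, no trend, a limit of 1 on the size of the log2 fold change, a block for the replicate number, each library left out in turn, and replicate 1 of every group left out. The labels give the groups the same replicate numbers. Deviations from the group means correlated across genes at r = 0.463 to 0.508 between the knockout libraries numbered 1, 0.227 to 0.250 for number 2 and 0.196 to 0.222 for number 3, but at -0.0265 to 0.163 between knockout and vector libraries of one number, so the block is set beside the comparisons between knockout groups. Knockout libraries numbered 2 in a group and 3 in another correlated at 0.158 to 0.302, as strongly as those of the same number. Number 1 correlated with 2 or 3 at -0.416 to -0.269. Deviations within a group cancel for each gene. The values outside number 1 therefore follow in part from those between libraries numbered 1 and are not separate evidence. The numbers set replicate 1 apart and do not tell 2 from 3. What a number marks is not given in the sources used here. The protein sequences of CKS1B and CKS2 were not used here.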

Additional observations from a re-analysis of the deposited data

Results flagged for a closer look

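The test of the difference itself, the interaction term of limma with an adjusted p under 0.05, singled out 18 of the 51 tested members, in each of which the change in the dual knockout was less negative than the sum of the single-knockout changes. The terms, on the log2 scale, were 1.41 for CCNB1, 1.31 for CCNB2, 1.58 for CCNA2, 1.25 for CKS1B and 2.09 for FOXM1 among the mitotic entry genes. The size of the FOXM1 term leaned on vector replicate 3, which stood far above the other vector libraries. The terms were 1.26 for TOP2A and 1.36 for MKI67 on the mitotic chromosome, 1.36 for CENPA at the centromere, and 1.5 for INCENP and 1.26 for CDCA8 in the passenger complex. Among motors and spindle proteins they were 1.08 for KIF23, 1.74 for TPX2, 1.07 for CKAP2 and 1.61 for TROAP. In anaphase control and cytokinesis they were 1.81 for CDC20, 1.36 for SGO1, 1.35 for PRC1 and 1.14 for RACGAP1. Of all tested genes 13.2% had a positive term past the same threshold.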

How the results depend on the processing

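Counts of members called fell outside 1.5 times their value in these settings, and apart from the fewer genes or libraries that some of them hold the cause was not tested. Shares of all genes called were taken for the main fit and for the block in the knockout groups alone. The counts in the other settings therefore have no share of all genes beside them, and the shares of the main fit do not apply to them. For HIF2α-ko against vector (17) the count was 4 with no filter, 5 after median ratio scaling, 8 after quantile normalization and 7 with only the groups compared in the fit. For the dual knockout against vector (40) it was 25 at a mean TPM of at least 5, where 33 members remained to be tested. Against HIF2α-ko (6) the dual knockout gave 11, 12 and 10 with median ratio scaling, quantile normalization and only the groups compared, and the interaction (18) gave 11 with either scaling. A log2 fold change of at least 1 left 8 for HIF2α-ko and 22 for the dual knockout against vector, 1 and 2 for the dual knockout against HIF1α-ko and HIF2α-ko, and 4 for HIF1α-ko against HIF2α-ko. With replicate 1 of every group left out the counts were 39 for HIF2α-ko against vector, 19 and 21 for the dual knockout against HIF1α-ko and HIF2α-ko, 40 for HIF1α-ko against HIF2α-ko and 41 for the interaction. Leaving out 1 library at a time gave 32 to 48 for HIF1α-ko, 1 to 22 for HIF2α-ko and 33 to 43 for the dual knockout against vector, 0 to 13 and 2 to 11 for the dual knockout against HIF1α-ko and HIF2α-ko, 3 to 34 for HIF1α-ko against HIF2α-ko and 8 to 30 for the interaction. No setting turned the direction of a named call.

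With the replicate block fitted in the 3 knockout groups, 18 members were called between the dual knockout and HIF1α-ko, 22 between the dual knockout and HIF2α-ko and 38 between HIF1α-ko and HIF2α-ko. With the replicate block in all groups the last 2 counts were 14 and 24, the interaction gave 29, and the comparisons with vector gave 47, 23 and 45 for HIF1α-ko, HIF2α-ko and the dual knockout. The shares of all genes called with the block in all groups were not taken. Vector libraries correlated with knockout libraries of the same number at r = -0.0265 to 0.163 only.

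Subgroup medians less the median of all genes stayed below 0 in every setting and moved by more than their spread (1 SD, pooled over the 4 groups) as follows. With a pseudocount of 0.1 the kinetochore value was -1.39 in HIF1α-ko and -1.41 in the dual knockout, and kinesins in HIF1α-ko were -1.82. In the dual knockout condensin and mitotic chromosome (condensin below) was -1.67 and spindle -1.72. With no filter kinetochore was -0.63 and condensin -1.0 in the dual knockout. At a mean TPM of at least 5 condensin was -1.65, -0.74 and -1.55 in HIF1α-ko, HIF2α-ko and the dual knockout. In that setting NCAPH was the only condensin subunit left in the subgroup, beside TOP2A, MKI67 and CDCA2. With replicate 1 of every group left out the values in HIF1α-ko were -1.37 for kinetochore, -2.26 for the passenger complex, -1.76 for kinesins, -1.96 for cytokinesis, -2.09 for anaphase control and -1.89 for mitotic entry, in HIF2α-ko -0.82 for kinetochore, -0.94 for spindle, -1.05 for anaphase control and -1.17 for mitotic entry, and in the dual knockout -1.39 for condensin and -1.55 for mitotic entry. Leaving out 1 library at a time gave, in HIF1α-ko, -1.25 to -0.86 for kinetochore, -2.18 to -1.52 for the passenger complex, -1.88 to -1.38 for spindle, -1.97 to -1.40 for cytokinesis and -1.99 to -1.37 for anaphase control, in HIF2α-ko -0.41 to -0.033 for condensin and -0.97 to -0.48 for spindle, and in the dual knockout -1.33 to -0.77 for kinetochore and -1.36 to -1.18 for condensin.

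Of the named members called, 23 of 26 in HIF1α-ko, 1 of 15 in HIF2α-ko and 21 of 23 in the dual knockout against vector were called in every setting, the limit on size aside. TPM keeps no depth, so no value has a counting error.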
